A study of Mus musculus with 18 samples.

Results

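The 8 genes described here, Pik3r1, Ptpn1, Insr, Irs1, Akt2, Grb10, Slc2a1 and Slc2a4, carry the insulin signal from its receptor to glucose uptake or restrain it. They were taken by name, as all probe sets whose platform gene symbol is 1 of the 8. This gave 11 probe sets of the 12422 tested and 8 genes of the 8251 with a probe set of 1 symbol. The list was chosen with earlier results of these data known. Shares of all probe sets set beside its counts below are therefore a description and not a test of the list. Grb10 has 3 probe sets, Slc2a4 has 2 and the others have 1 each, and 0 probe sets list a member together with another gene. RNA was measured on 18 Affymetrix MG_U74Av2 arrays from 3T3-F442A adipocytes, fat cells grown in culture from a clonal mouse preadipocyte line. Controls and cells treated with growth hormone (GH) were taken at 30 min, 4 h and 48 h. This gives 6 groups with 3 arrays each, and every group has 1 array in each of experiments 1, 2 and 3. Nothing else separates the groups in the labels, which give no GH dose, medium or insulin content for any of them. The values are signals, linear intensities in arbitrary units that have the same trimmed mean on every array.

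Insulin binding activates the receptor encoded by Insr, a tyrosine kinase that phosphorylates adaptor proteins such as the Irs1 product. Phosphorylated Irs1 protein recruits PI3-kinase through its regulatory subunit, p85α, which Pik3r1 encodes together with shorter forms, and the lipid made by the kinase activates AKT kinases. In fat cells AKT2 drives the transporter GLUT4, encoded by Slc2a4, to the cell surface, while GLUT1, encoded by Slc2a1, serves uptake without insulin. Ptpn1 encodes the phosphatase PTP1B, which removes phosphate from the insulin receptor, and Grb10 encodes an adaptor that binds the receptor and inhibits it. GH is known as an antagonist of insulin action in fat, and excess p85α over the catalytic subunit has been proposed as part of that antagonism.

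The arrays carried a clear fat cell signature. All 10 measured genes of a list of 12 adipocyte markers, Slc2a4 among them, had a mean signal above 105.6 in every group, which is the highest value of the 19 yeast and Bacillus probe sets that mouse RNA should not bind (342 values, median 14.95). Of 13 preadipocyte or fibroblast markers 12 were measured and 9 were above that level in every group, with a summed signal of 16530 to 57080 per array against 82920 to 121200 for the adipocyte markers. Of 9 macrophage markers 2 to 4 were above it, with a summed signal of 1591 to 4927. Cd14 (group means 1568 to 3850) and Cd68 (212 to 306) were above it in every group and Csf1r and Lyz2 in some. Adgre1, Ptprc, Itgam, Fcgr1 and Tyrobp stayed below it in all 6 group means. Of 7 skeletal muscle markers 2 to 4 were above it, with a summed signal of 693.9 to 1357. Of 6 endothelial markers 1 was, with 305.5 to 798.6, so this level alone does not set cell types apart. Groups follow the titles, and 3 arrays carry a description that points to a different group, namely GH 30 min of experiment 1 (described as GH 48 h), control 48 h of experiment 3 (control 4 h) and GH 4 h of experiment 3 (GH 30 min), and results that passed and rest on them are given with and without them. Array medians were 149.7 to 182.7 and arrays correlated with each other at 0.928 to 0.983.

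Pik3r1 (probe set 96592_at, chromosome 13) was the member with the clearest response to GH. Its signal was several times higher after 4 h of GH than in the controls of the same time, and was still above control after 48 h. At 30 min its signals in GH and control cells overlapped. The rise at 4 h passed the test over all probe sets, and that at 48 h passed once the experiment number was fitted as a block.

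The signals of Pik3r1 in the 30 min controls of experiments 1, 2 and 3 were 139.8, 222.1 and 163.4, and in the cells given GH for 30 min they were 124, 180.1 and 126.8. GH was lower than control in 3 of 3 experiments, but the groups overlapped. The change was -0.24 ± 0.30 on the log2(signal + 25) scale (standard error; 95% interval -0.88 to 0.39; limma, adjusted p = 1), where 25 was added to damp the noise of dim probe sets and adjusted p-values are Benjamini-Hochberg values over all 12422 probe sets with a threshold of 0.05. No member probe set passed by limma at 30 min, 0 of 11 with or without the block and 0 with an unadjusted p below 0.05, where 0.0403% of all probe sets were called in either direction without the block and 0.0805% with it. None of the 11 had groups that did not overlap, against 6.83% of all probe sets.

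At 4 h the control signals of Pik3r1 were 134.2, 183.9 and 159.1, and the GH signals were 1026.1, 1560.8 and 523.5. Every GH array lay above every control array, and the lowest of them, in experiment 3, is 1 of the arrays of conflicting description. The mean was 159 ± 24.9 in controls and 1037 ± 519 with GH (SD, n = 3), a ratio of means of 6.52. Within experiments the ratio was 7.65, 8.49 and 3.29. The log2 change was 2.41 ± 0.30 (95% interval 1.77 to 3.04; limma, adjusted p = 0.0016), higher in 3 of 3 experiments, and 2.82 ± 0.26 without the 3 arrays (limma, adjusted p = 0.000565). The call held when any 1 array of the comparison was left out (2.05 to 2.82, limma, adjusted p from 0.000123 to 0.0143) and was lost when only these 6 arrays were fitted, without the spread of the other groups (limma, adjusted p = 0.291). In RNA from whole cultures, more cells with a transcript and more of it per cell cannot be told apart. Pik3r1 was the only one of the 11 member probe sets called at 4 h, where 0.113% of all probe sets were called higher without the block and 0.25% with it, and the only one whose groups did not overlap, against 6.26% of all probe sets that were higher in this way.

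After 48 h the control signals of Pik3r1 were 255.6, 334.3 and 246.2 and the GH signals 555.1, 771.6 and 614.5. The groups did not overlap, and the within-experiment ratios of 2.17, 2.31 and 2.5 were closer together than at 4 h. The means were 279 ± 48.4 and 647 ± 112 (SD, n = 3). The log2 change was 1.14 ± 0.30 (95% interval 0.51 to 1.78), which did not pass without the block (limma, adjusted p = 0.172) and passed with it (limma, standard error 0.22, adjusted p = 0.0211). Leaving out any 1 of the 6 arrays ended that call, with changes of 1.06 to 1.19 and adjusted p from 0.0506 to 0.0858 by limma with the block. Without the 3 arrays of conflicting description, which lie in several groups, the change was 1.10 and passed (limma with the block, adjusted p = 0.00451).

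The GH effect on Pik3r1 differed between 30 min and 4 h by 2.65 ± 0.42 on the log2 scale, in the direction of a larger effect at 4 h in 3 of 3 experiments. This difference missed the threshold without the block (limma, adjusted p = 0.0548) and passed with it (limma, adjusted p = 0.00543). Without the 3 arrays of conflicting description it was 2.98 ± 0.36 and passed both without the block (limma, adjusted p = 0.0138) and with it (3.06, adjusted p = 0.000198). The call with the block held when any 1 of the 12 arrays was left out (2.43 to 3.02, limma, adjusted p from 5.55e-06 to 0.0335). With all arrays it was the only 1 of the 11 member differences to pass, where 0.0161% of all probe sets passed without the block and 0.0725% with it. From 4 h to 48 h the effect was smaller by 1.68, 1.78 and 0.34 log2 units in experiments 1, 2 and 3. The fitted difference of -1.26 ± 0.42 passed neither without the block (limma, adjusted p = 0.931) nor with it (0.218), in a comparison where 0.00805% of all probe sets passed without the block and 0% with it, and without the 3 arrays it was -1.75 (limma, adjusted p = 0.285) and passed once the block was added (-1.69, adjusted p = 0.0132). The effect at 48 h exceeded that at 30 min by 1.39 ± 0.42 (limma, adjusted p = 0.631, with the block 0.129; 0.0644% and 0.177% of all probe sets called), and without the 3 arrays by 1.23 (0.584), or 1.37 with the block, which passed (0.0235). Averaged over the 3 times, the GH effect on Pik3r1 was 1.10 ± 0.17 (limma, adjusted p = 0.0109), with 0.177% of all probe sets called and 0.668% with the block, and no other member passed in this average. The average without the 3 arrays was 1.24 ± 0.15 (limma, adjusted p = 0.00276).

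The controls of Pik3r1 were not flat. Control signals at 48 h, 246.2 to 334.3, lay above all control signals at 4 h, 134.2 to 183.9, and at 30 min, 139.8 to 222.1. The log2 differences of 0.72 ± 0.30 against 4 h (limma, adjusted p = 1, with the block 0.407) and 0.61 ± 0.30 against 30 min (0.924 and 0.344) did not pass. Ordered by mean signal, GH 30 min, control 4 h and control 30 min overlapped at the bottom, control 48 h stood alone above them, and GH 48 h and GH 4 h overlapped at the top. Experiment 2 gave the highest Pik3r1 signal in 6 of 6 groups.

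**Figure D1:**
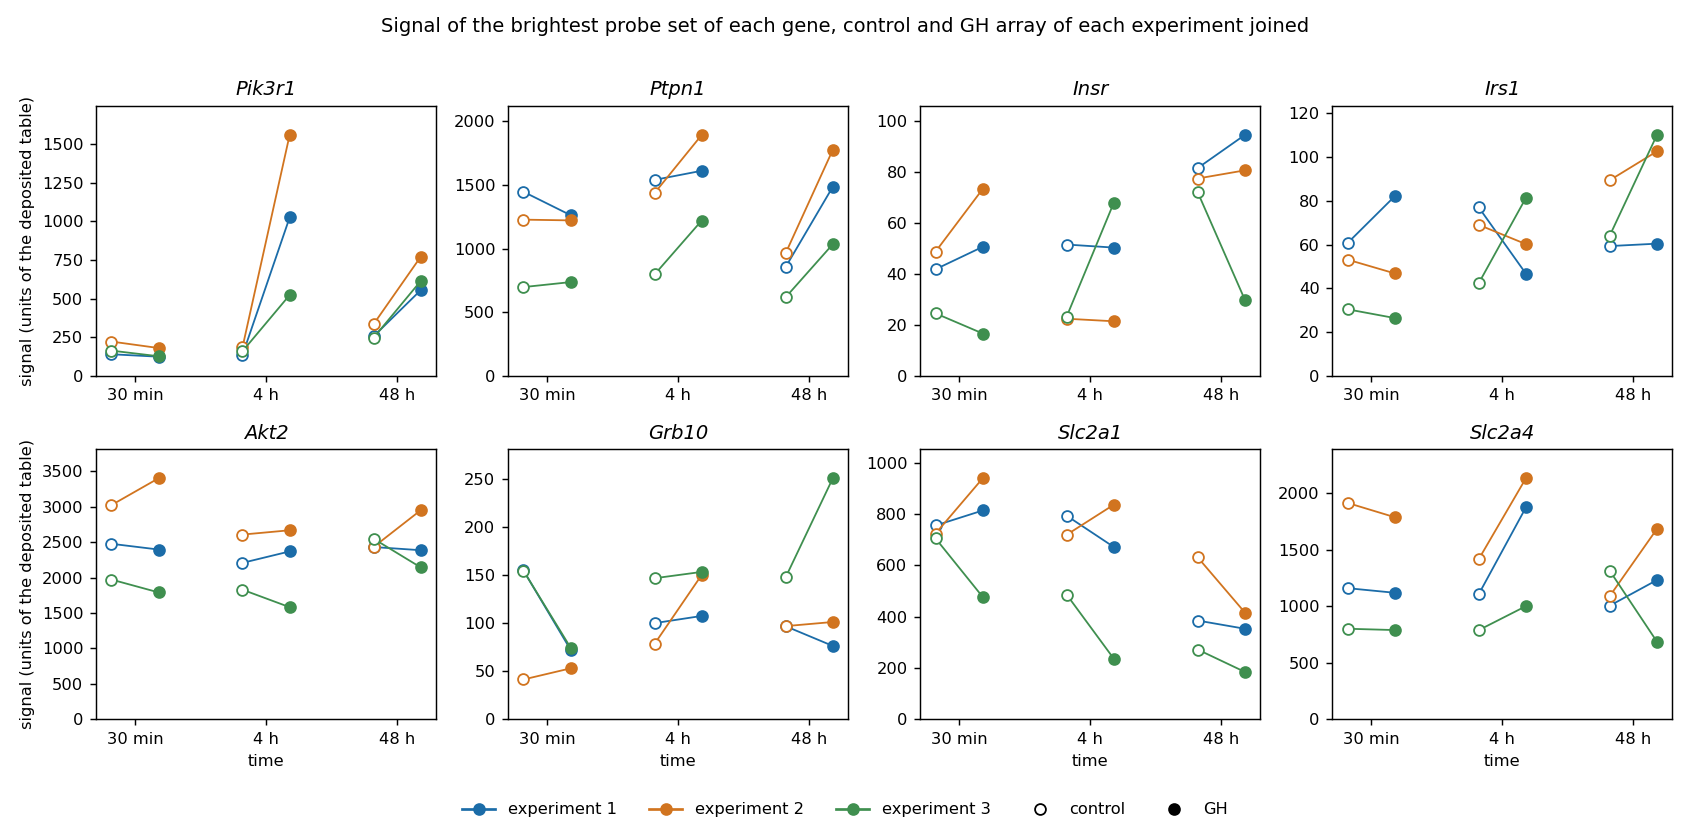
Signal of each member's brightest probe set (linear axis from 0, units of the deposited table) at 30 min, 4 h and 48 h, with open points for control arrays, filled points for GH arrays, colour for the experiment and a line joining the GH and control array of 1 experiment. The 3 Pik3r1 lines climb steeply at 4 h, from 134.2 to 183.9 up to 523.5 to 1560.8, while the Akt2 points of GH and control overlap at every time.

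The upstream sequences of Pik3r1 are shown because this gene carries the main finding and has separate starts. RefSeq (GRCm38.p6) gives 2 promoter windows for Pik3r1, on the minus strand of chromosome 13, with starts 75587 bases apart. The 250 bases before each start are printed 5′ to 3′ with every GC box (GGGCGG or its complement CCGCCC, the classical site of Sp1-type factors, searched on both strands) in capitals.
Pik3r1 window 1, chr13:101768218-101768467: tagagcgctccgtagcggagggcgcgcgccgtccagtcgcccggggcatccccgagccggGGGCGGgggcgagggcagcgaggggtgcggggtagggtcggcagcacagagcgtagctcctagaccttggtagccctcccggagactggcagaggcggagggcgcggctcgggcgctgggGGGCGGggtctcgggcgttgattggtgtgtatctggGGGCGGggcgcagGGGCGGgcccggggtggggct
Pik3r1 window 2, chr13:101692631-101692880: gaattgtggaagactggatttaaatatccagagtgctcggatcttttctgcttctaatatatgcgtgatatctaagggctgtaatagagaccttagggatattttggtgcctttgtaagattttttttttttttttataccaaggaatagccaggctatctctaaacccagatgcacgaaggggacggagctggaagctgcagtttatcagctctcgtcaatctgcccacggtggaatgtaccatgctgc
The first stretch is 76.4% G or C and holds 4 GC boxes, and the second is 42.4% G or C and holds 0. The files do not say from which start the RNA read by the probe set came.

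Promoter windows of 300 bases, from 250 before to 50 after a start, were found for 6 of the 8 members, 11 windows in all, and the windows of Insr and Slc2a4 were not used here. The STAT5 consensus TTCNNNGAA, the binding sequence of the main transcription factor activated by the GH receptor, reads the same on both strands. It occurs in 1 of the 11 windows, the first of Akt2, and in 8.3% of the 32851 windows of all genes. The FOXO core TGTTTAC, on both strands, occurs in 0 of 11 and in 3.65% of all. A GC box, a motif picked after the sequences had been seen, occurs in 6 of 11 and in 35.7% of all. No overlap with another motif was searched for, and these matches describe letters only.

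Among the brakes on the insulin receptor, Ptpn1 had higher signals after 48 h of GH in each experiment. Its probe set (94929_at, chromosome 2) gave 854.5, 963.4 and 617 in the 48 h controls of experiments 1, 2 and 3 and 1485.8, 1776 and 1034.5 with GH. All 3 GH values lay above all 3 controls, although experiment 3 was low in both groups. The means were 812 ± 177 and 1432 ± 374 (SD, n = 3), and the ratios within experiments were 1.74, 1.84 and 1.68. The log2 change was 0.79 ± 0.33 without the block (limma, adjusted p = 0.649) and passed with it (standard error 0.14, 95% interval 0.49 to 1.09; limma, adjusted p = 0.016). The block call rested on single arrays, as it was lost without control 48 h of experiment 1 (limma, adjusted p = 0.0894), control 48 h of experiment 2 (0.056) or GH 48 h of experiment 2 (0.0876), with changes of 0.72 to 0.86 over all 6 omissions. It was kept without the 3 arrays of conflicting description (0.87, limma with the block, adjusted p = 0.034).

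Pik3r1 and Ptpn1 were thus the only member probe sets with groups that did not overlap at 48 h, 2 of 11, where 5.23% of all probe sets were higher in this way. They were also the 2 of 11 called with the block, where 0.692% of all probe sets were called higher, and 0 of 11 were called by limma without it, where 0.25% were. Unadjusted p-values were below 0.05 for 3 of the 11 without the block and 2 with it, against 6.5% and 10.3% of all probe sets.

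At the earlier times Ptpn1 did not pass. Its signals at 30 min were 1446.2, 1227.2 and 697.3 in controls and 1262.1, 1221.3 and 736.5 with GH. At 4 h they were 1539.5, 1436 and 796.2 in controls and 1611.2, 1893 and 1220.4 with GH. The groups overlapped at both times, with log2 changes of -0.04 ± 0.33 (limma, adjusted p = 1) and 0.35 ± 0.33 (adjusted p = 0.95, with the block 0.385). Experiment 3 was the lowest in 6 of 6 groups, with a mean of 850 against 1367 and 1419 in experiments 1 and 2. The controls moved as well, to 812 ± 177 at 48 h from 1257 ± 403 at 4 h, a log2 difference of -0.58 ± 0.33 that was lower in 3 of 3 experiments and did not pass (limma, adjusted p = 1, with the block 0.258). The GH signals at 48 h were 1034.5 to 1776, against 796.2 to 1539.5 in the 4 h controls and 1220.4 to 1893 in the 4 h GH arrays. The part of the lower control mean in the difference at 48 h was not tested.

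Grb10, the inhibitory adaptor (chromosome 11), was dim, and none of its 3 probe sets passed at any time. The brightest, 93690_at, gave 99.9, 78.3 and 146.6 in the 4 h controls and 107.4, 150.1 and 153.2 with GH. The 2 groups overlapped, and the log2 changes of -0.50, 0.30 and 0.15 at 30 min, 4 h and 48 h (each ± 0.39) did not pass. The second, 93691_s_at, of a kind that can read related transcripts, gave 22.4, 32.5 and 157.8 in the 4 h controls and 157.8, 107.2 and 204.6 with GH. Its change of 1.16 ± 0.51 was positive in 3 of 3 experiments, at 1.95, 1.20 and 0.33, and did not pass (limma, adjusted p = 0.694, with the block 0.254), and its changes at 30 min and 48 h were -0.09 and 0.33. The dimmest, 95450_at, never exceeded 70.9 and lay below 105.6 on 18 of 18 arrays. Its largest change, 0.85 ± 0.39 at 48 h, had opposite sign in experiment 2 (limma, adjusted p = 0.759), and those at 30 min and 4 h were 0.22 and 0.20. All 3 probe sets were higher in sign at 4 h and at 48 h, and differences between them were not tested.

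The receptor and its first adaptor were read at the level of probe sets without a target. Insr (102146_at, chromosome 8) gave signals of 16.6 to 94.5 and was below 105.6 on 18 of 18 arrays. Irs1 (98824_at, chromosome 1) gave 26.4 to 110.1 and exceeded that level on 1 array, GH 48 h of experiment 3. The log2 changes with GH at 30 min, 4 h and 48 h were 0.11, 0.30 and -0.20 for Insr (each ± 0.35) and 0.03, 0.00 and 0.26 for Irs1 (each ± 0.28), and none passed by limma. At such signals the added 25 shrinks any change, so these probe sets limit what can be said of both genes rather than showing a steady level. The Insr signals of the 48 h controls, 81.5, 77.4 and 72, lay above those of the 4 h controls, 51.5, 22.4 and 23.2, a log2 difference of 0.87 ± 0.35 that did not pass (limma, adjusted p = 1, with the block 0.518).

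Akt2, the kinase that mediates insulin-driven glucose uptake in fat cells (160558_at, chromosome 7), had its GH and control means close together at all 3 times. At 48 h the signals were 2432.6, 2432.7 and 2549.8 in controls and 2387.3, 2952.5 and 2144.6 with GH. The groups overlapped there and at 30 min and 4 h, and the range over 18 arrays was 1582.6 to 3404. The log2 changes were -0.01, -0.02 and 0.00 (each ± 0.25), and the 95% interval at 48 h, -0.53 to 0.53, bounds what these arrays could have missed (limma, adjusted p = 0.999).

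Neither glucose transporter gene passed at any time. Slc2a4 (102314_at, chromosome 11), which encodes GLUT4, gave 1106, 1415.9 and 788.3 in the 4 h controls and 1874.4, 2132.9 and 1000.6 with GH. GH was higher in 3 of 3 experiments, by 0.75, 0.58 and 0.33 log2 units, while the groups overlapped. The change of 0.56 ± 0.40 did not pass (limma, adjusted p = 0.898, with the block 0.455). At 30 min it was -0.06 ± 0.40. At 48 h the signals were 1005, 1090.2 and 1313.6 in controls and 1231.9, 1685.1 and 685.8 with GH, and the change of 0.00 ± 0.40 joined 2 experiments with higher and 1 with much lower GH signals. The control of that pair, at 48 h in experiment 3, is an array of conflicting description. The second Slc2a4 probe set, 162385_i_at, lay at 23.6 to 118.3, exceeded 105.6 on 2 of 18 arrays and changed by 0.20, 0.25 and 0.27 (each ± 0.36), which did not pass.

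Slc2a1 (93738_at, chromosome 4), encoding GLUT1, gave 384.7, 631.2 and 271.6 in the 48 h controls and 352.7, 416 and 184.3 with GH. GH was lower in 3 of 3 experiments with overlapping groups, a log2 change of -0.40 ± 0.42 that did not pass (95% interval -1.28 to 0.49; limma, adjusted p = 0.962, with the block 0.639). The changes at 30 min and 4 h were -0.02 and -0.33 (each ± 0.42). At 4 h experiments 1, 2 and 3 gave -0.23, 0.21 and -0.97. Without GH 4 h of experiment 3, an array of conflicting description, the 4 h change was 0.19. The 30 min controls, at 755.5, 723.9 and 705.2, lay above all 48 h controls, a log2 difference of -0.81 ± 0.42 for 48 h against 30 min (limma, adjusted p = 0.94, with the block 0.238).

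**Figure D2:**
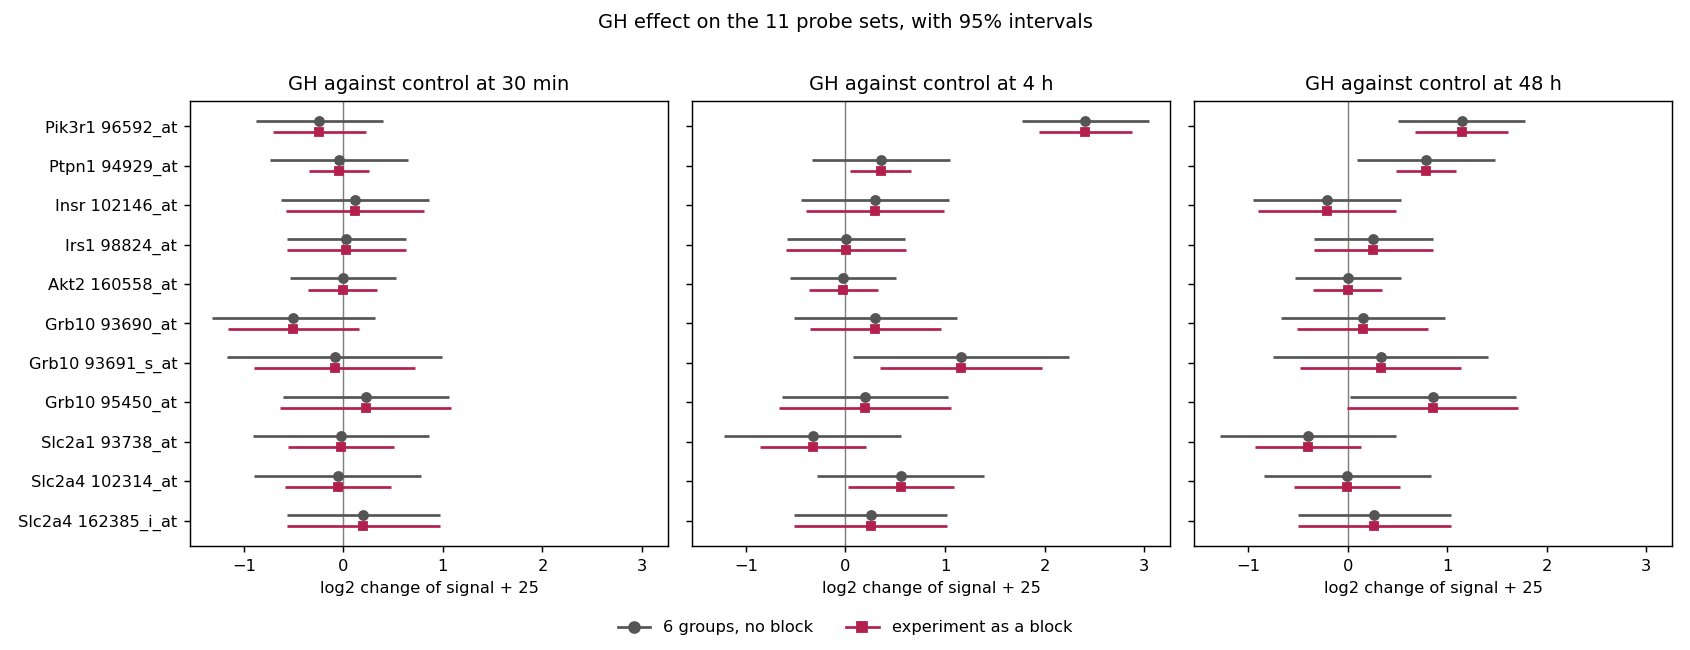
Log2 change of signal + 25 with GH at 30 min, 4 h and 48 h for each of the 11 member probe sets, with 95% intervals (n = 3 arrays a group) from limma without the block (grey circles) and with it (red squares). The Pik3r1 estimates of 2.41 at 4 h and 1.14 at 48 h stand farthest to the right at their times, and the interval of Ptpn1 at 48 h narrows with the block to 0.49 to 1.09.

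Between controls, no member passed by limma with or without the block. The comparisons follow in the order 4 h against 30 min, 48 h against 4 h and 48 h against 30 min. Without the block 0, 3 and 0 of the 11 probe sets had an unadjusted p below 0.05, against 2.99%, 4.12% and 5.46% of all. With the block 0, 6 and 4 of the 11 did, against 4.36%, 7.63% and 9.5% of all. From 30 min to 4 h, where 0 of 11 member probe sets had groups that did not overlap, 0.0886% of all probe sets were called, 0.0966% with the block, and 7.35% had no overlap. From 4 h to 48 h, Pik3r1 and Insr were higher without overlap and the dimmest Grb10 probe set lower, 3 of 11 against 9.41% of all. In that comparison 0% of all probe sets were called by limma, 0.00805% with the block, and 512 had an unadjusted p below 0.05, 948 with the block. From 30 min to 48 h, Pik3r1 and Insr were higher without overlap and Slc2a1 lower, again 3 of 11 against 10.4%, with 0.129% of all probe sets called and 0.338% with the block.

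The experiments differed from each other in several members, a spread that the block removes from the error. Experiment 3 had the lowest Slc2a1 signal in 6 of 6 groups (mean 393 against 629 and 711) and the lowest Akt2 and Slc2a4 (102314_at) signals in 5 of 6, the exception for both being its 48 h control. Dlk1, a preadipocyte marker, was highest in experiment 3 in 6 of 6 groups, with a mean signal of 7531 against 2434 and 3549, while the adipocyte marker Adipoq had means of 33110, 30020 and 31010 in experiments 1, 2 and 3. The part of cell composition in the members' levels was not tested. With GH at 48 h, 10 of the 12 measured preadipocyte or fibroblast markers were lower in sign, 1 of them past the threshold and 2 with the block (median log2 change -0.44), and their summed signal was 33580 to 53880 in controls and 16530 to 57080 with GH. Of the 10 measured adipocyte markers 6 were lower in sign, 0 past the threshold and 1 with the block (median -0.15), and their summed signal was 92540 to 108100 in controls and 82920 to 91360 with GH, which do not overlap. Over all probe sets 0.338% were called in either direction at 48 h and 1.27% with the block, and the part of either marker list in the 48 h results was not tested.

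The rest of the pathway was followed in a list of 107 further genes by role, of which 79 were measured. At 30 min and at 4 h none of the 79 passed by limma, without or with the block, where 0.121% and 0.362% of all probe sets were called at 4 h. At 48 h none passed without the block, where 0.338% of all were called, and 1 passed with it, where 1.27% were. Unadjusted p-values were below 0.05 for 2, 5 and 5 of the 79 at the 3 times without the block and for 3, 12 and 10 with it, against 2.45%, 6.86% and 6.5% of all probe sets without the block and 3.61%, 10.3% and 10.3% with it. The median log2 changes of the list were -0.03, -0.04 and -0.08 at 30 min, 4 h and 48 h, and those of all probe sets were -0.03, 0.02 and 0.02. The median over the 8 members, each by its brightest probe set, was -0.03, 0.30 and 0.08. At 4 h it lay between Insr (0.298) and Grb10 (0.300), both dim. The Insr changes in experiments 1, 2 and 3 were -0.02, -0.03 and 0.95, the last with a GH array of conflicting description. A shift of the members as a set was not tested.

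The gene called with the block was Pck1, which encodes the cytosolic enzyme that feeds glycerol synthesis in fat and whose transcription insulin represses. Its signals at 48 h were 190.5, 132.2 and 607 in controls and 24.8, 35.6 and 152.4 with GH. GH was lower in 3 of 3 experiments, but the high level of experiment 3 in both groups made the groups overlap. The log2 change was -1.77 ± 0.50 (limma, adjusted p = 0.234, with the block 0.0379). Leaving out 1 array without the block gave -2.34 to -1.18, with 1 of 6 omissions past the threshold, that of GH 48 h of experiment 3 (limma, adjusted p = 0.0453). Without control 48 h of experiment 3, the highest control and an array of conflicting description, it was -1.18 (limma, adjusted p = 0.63). The call with the block was lost, at -1.41, without the 3 arrays of conflicting description (limma, adjusted p = 0.138). Fasn, the fatty acid synthase that insulin raises, had 5205.2, 4139.1 and 8189.3 in the same controls and 2118.1, 2094.7 and 2967 with GH. These groups did not overlap, and the change of -1.24 ± 0.29 missed the threshold (limma, adjusted p = 0.101, with the block 0.0698). Lipe, the hormone-sensitive lipase and also an adipocyte marker in the list above, changed by -0.63 ± 0.21 (adjusted p = 0.427, with the block 0.0919). Of the 10 measured insulin-regulated transcripts 7 were lower and 3 higher in sign at 48 h, with a median of -0.32.

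Among the other PI3-kinase subunits no gene passed at any time. Pik3r2, which encodes the second regulatory subunit, p85β, had log2 changes of 0.30, -0.44 and 0.19 at 30 min, 4 h and 48 h (each ± 0.33), unlike those of Pik3r1, although the difference between the 2 genes was not tested. Pik3ca, a catalytic subunit, had -0.58 ± 0.28 at 4 h (limma, adjusted p = 0.731), with signals of 374.3, 416.9 and 227.7 in controls and 212.4, 135.5 and 322.3 with GH, so that experiment 3 went the other way. Its second probe set was lower with GH in 3 of 3 experiments, by -1.38, -1.25 and -0.37 log2 units, and its groups did not overlap. The change of -0.998 ± 0.39 did not pass (limma, adjusted p = 0.612, with the block 0.194). Pik3c3, the class III kinase of autophagy and endosome traffic, gave 522.2, 410 and 384.2 in the 4 h controls and 260.3, 228.6 and 223.4 with GH. The groups did not overlap, and the change of -0.81 ± 0.22 did not pass (limma, adjusted p = 0.306, with the block 0.0744). Pik3c2a, a class II kinase, had -0.62 ± 0.22 at 30 min (adjusted p = 1). Its other probe set changed by -0.40 ± 0.29, with both group means below 105.6, and did not pass.

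In the AKT branch, Tbc1d1, a brake on GLUT4 traffic that AKT phosphorylates, gave 180.7, 184.5 and 272.9 in the 4 h controls and 354.9, 300 and 338 with GH. The change of 0.60 ± 0.20 was positive in 3 of 3 experiments and did not pass (limma, adjusted p = 0.47, with the block 0.089). Without the 3 arrays of conflicting description it was 0.72 with the block and passed (limma, adjusted p = 0.045). Akt1 gave 965.1, 785.7 and 1022.2 in the 48 h controls and 1468.7, 1587.1 and 1079 with GH, without overlap. Its change of 0.55 ± 0.17 did not pass (limma, adjusted p = 0.331, with the block 0.19). The other genes with the lowest unadjusted p-values in either direction did not pass with all arrays, without or with the block. They were Insrr at -0.67, Crk at -0.71, Grb2 at 0.24 and Rab10 at 0.26 at 30 min, Irs3 at 0.69, Eif4e at 0.89 and Sesn1 at -0.78 at 4 h, and Inpp5k at 0.59 and Ptpre at 0.69 at 48 h. Of these Insrr, Crk, Irs3 and Eif4e had both group means below 105.6. The other Eif4e probe set changed by -0.35 and the other Rab10 probe set by 0.05. Without the 3 arrays of conflicting description, Inpp5k at 48 h was 0.85 with the block and passed (limma, adjusted p = 0.0351).

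**Figure D3:**
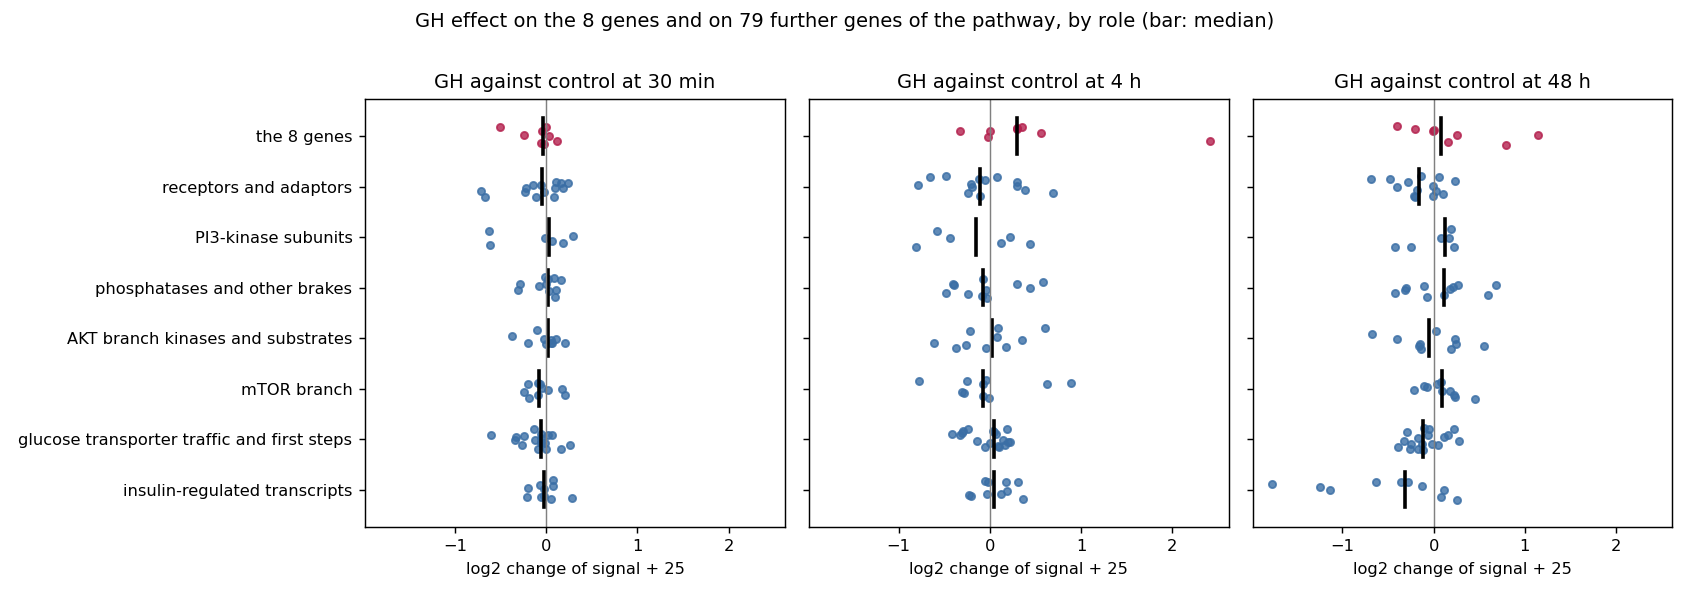
Log2 change of signal + 25 with GH at 30 min, 4 h and 48 h, 1 point per gene by its brightest probe set, for the 8 members (top row, red) and the 79 other measured genes by role (blue), with a bar for the median of each row. Pik3r1 at 4 h, 2.41, is the highest point, and Pck1 at 48 h, -1.77, is the lowest.

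The transcripts whose signals followed Pik3r1 most closely over the 18 arrays were Elovl5 (Pearson r 0.898 on the log2 scale), Loxl1 (0.875), Asns (0.864), Ugdh (0.863), Adipor2 (0.863) and Cish (0.847), out of 4860 genes with a group mean of at least 200. These arrays share the GH groups and the experiments, so the values describe likeness in this design only and carry no p. Elovl5, a fatty acid elongase, gave 1497.4, 1637.2 and 1363.6 in the 4 h controls and 2301, 2650.4 and 2051.3 with GH, with experiment 2 highest and experiment 3 lowest in both groups. Cish, an inhibitor of cytokine receptor signalling and a known STAT5 target, gave 194.8, 88.2 and 134.4 in the same controls and 895.9, 904.4 and 820.9 with GH. Once group means were removed, r with Pik3r1 was 0.679 for Elovl5, 0.413 for Loxl1, 0.319 for Ugdh, 0.095 for Asns, -0.063 for Adipor2 and -0.43 for Cish.

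Of the other members, Ptpn1 (r 0.494), the second Grb10 probe set (0.568) and Slc2a4 (102314_at, 0.429) came nearest to Pik3r1 over the 18 arrays, and Slc2a1 had the lowest value (-0.30). Adipor2, which encodes an adiponectin receptor, had mean signals of 5195 ± 584 at 4 h and 6089 ± 163 at 48 h of GH (SD, n = 3) and controls of 2162 ± 125 and 2310 ± 125, so its GH mean was higher at 48 h than at 4 h whereas that of Pik3r1 was lower, and the difference between the genes was not tested.

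**Figure D4:**
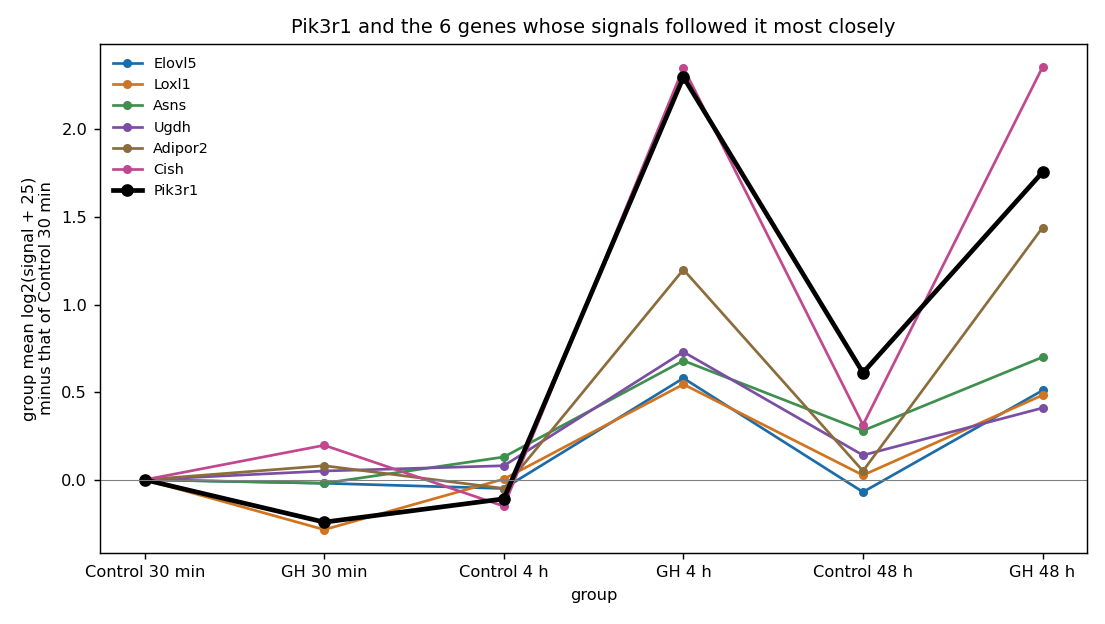
Group means of log2(signal + 25) minus that of the 30 min controls, for Pik3r1 (thick black line) and the 6 transcripts most correlated with it, over the 6 groups. All 7 lines are higher at GH 4 h and GH 48 h than in either matching control, and Pik3r1 has the highest point in the 48 h controls.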

How the data were processed

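RNA of 3T3-F442A adipocytes was measured on 18 arrays, and the deposited table holds linear signal intensities, 1 for each probe set on each array. The authors' summary method, scaling and software are not given in the sources used here. Leaving out 2% of the probe sets at each end, every array had a mean intensity of 500.3, so the deposited intensities appear to have been scaled between arrays. Of 12488 rows, 66 control probe sets were left out. Symbols came from the platform table, and 10833 probe sets carry 1 symbol, 396 several and 1193 none. For a gene with several probe sets the brightest by mean signal stands for it.

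Groups and experiment numbers were taken from the titles. Nothing says that the experiments used separate cultures, so p-values reflect only how far these arrays differ, which may be technical. Log2(signal + 25) was tested across all 12422 probe sets with limma 3.58.1 (R 4.3.3; lmFit and eBayes, two-sided) in a model of 6 group means with 12 residual degrees of freedom, adjusted by Benjamini-Hochberg, threshold 0.05. The alternative with the experiment number as a replicate block has 10. Deviations from group means of same-experiment GH and control arrays correlated at 0.151 to 0.457, each above 0.1, so the numbers were taken to pair the arrays. Other pairs gave -0.302 to 0.213. At 48 h, GH of experiment 2 with control of experiment 1, at 0.213, exceeded the matched pairs of experiments 1 (0.166) and 2 (0.151). The correlations therefore do not single out those 48 h pairs. The blocked value is given where it changes a call or a count. The model was tested on simulated data for GH against control at 4 h. It recovered 31 of 100 log2 changes of 1 and 88 of 100 log2 changes of 2, so smaller true changes can be missed. Other alternatives were an added 10 or 100, a mean signal of at least 100, quantile normalization, fitting only the groups compared, and leaving out arrays. Motifs and figures used Python 3.11.15, pandas 2.3.3 and matplotlib 3.10.9.

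The members and gene lists were chosen with earlier results of these data known. The text names all members, genes of the wider list that passed or had the 3 lowest p-values in each direction at each time, and the 6 transcripts most correlated with Pik3r1. For genes of the wider list, picked by p-value, groups without overlap are therefore a description and no separate support. The number of arrays, 3 a group, limits the precision of all values.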

Additional observations from a re-analysis of the deposited data

Results flagged for a closer look

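The GH effect on Pik3r1 differed between times. It was 2.65 ± 0.42 larger on the log2 scale at 4 h than at 30 min, where the effects were 2.41 and -0.24, with every experiment higher at 4 h and lower at 30 min. By limma the adjusted p of this difference was 0.0548 without the replicate block and 0.00543 with it. Without the 3 arrays of conflicting description it was 2.98 (limma, adjusted p = 0.0138), and 3.06 with the block (0.000198).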

How the results depend on the processing

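The rise of Pik3r1 at 4 h passed under every alternative run except the fit of only the groups compared, which left 2.41 with a larger standard error (limma, adjusted p = 0.291). At 48 h it passed with the replicate block (1.14) and with the block without the 3 arrays of conflicting description (1.10), and under none of the other alternatives. The block changed no call of the other members except that of Ptpn1 at 48 h. The cause of the changes below was not tested unless the alternative itself uses fewer arrays.

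Counts over all probe sets by limma depended on the setting. Without the block they were 5, 15 and 42 for GH at 30 min, 4 h and 48 h, and with it 10, 45 and 158, 83 for the average over times, 9, 0 and 22 for the differences of the GH effect (4 h minus 30 min, 48 h minus 4 h, 48 h minus 30 min), and 1 and 42 for controls at 48 h against 4 h and 30 min. Adding 100 gave 8 at 30 min, 36 for the average, 9 for the first difference and 1 for controls at 48 h against 4 h. A mean signal of at least 100 gave 73 at 48 h, 7 and 1 for the same difference and controls, and quantile normalization 6 for that difference. Only the groups compared gave 3, 0 and 0 at the 3 times, 0 for 48 h minus 4 h, and 3 and 4 for controls at 4 h and 48 h against 30 min. Without the 3 arrays there were 3 at 30 min, 32 at 4 h, 4 for 48 h minus 4 h and 2 for controls at 48 h against 4 h, and with the block as well 192 at 4 h, 142 at 48 h, 78 for the average, 13, 57 and 29 for the differences, and 4 and 59 for controls at 48 h.

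Leaving out 1 array gave 7 (without GH 4 h of experiment 1) to 38 (without GH 4 h of experiment 3) at 4 h and 16 (without control 48 h of experiment 2) to 64 (without GH 48 h of experiment 3) at 48 h. The differences ran from 1 to 9, 0 to 4 and 4 to 15, and the controls from 6 to 9 (4 h against 30 min), 0 to 2 (48 h against 4 h) and 7 to 13 (48 h against 30 min).

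Among members that passed nowhere, some log2 changes turned sign, also larger ones such as -0.33 for Slc2a1 and 0.30 for Insr at 4 h. Without the 3 arrays Irs1 had -0.24 and -0.14 and Akt2 0.0091 and 0.20 at 30 min and 4 h, the dimmest Grb10 probe set -0.010 and Slc2a1 0.19 at 4 h, and Slc2a4 0.10 at 48 h. With the block as well, Irs1 had -0.25 and -0.23, Akt2 0.029 and 0.040, the dimmest Grb10 probe set -0.025 at 4 h, Insr -0.18 at 4 h and 0.016 at 48 h, and Slc2a4 0.027 at 30 min and 0.40 at 48 h. Quantile normalization gave 0.025 for the second Grb10 probe set at 30 min and -0.063 for Irs1 at 4 h, and adding 100 gave 0.0024 for Slc2a4 at 48 h.

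Leaving out 1 array gave these ranges at 30 min: Ptpn1 -0.34 to 0.20, Insr -0.16 to 0.46, Irs1 -0.24 to 0.29, Akt2 -0.24 to 0.22, Grb10 -0.44 to 0.47 (second probe set) and -0.076 to 0.53 (dimmest), Slc2a1 -0.21 to 0.26, Slc2a4 -0.36 to 0.27 and -0.14 to 0.41 (dimmer probe set), and Rab10 -0.042 to 0.51. At 4 h they were -0.18 to 0.14 for Irs1, -0.18 to 0.20 for Akt2, -0.010 to 0.41 for the dimmest Grb10 probe set, -0.67 to 0.19 for Slc2a1 and -0.14 to 0.46 for the dimmer Slc2a4 probe set. At 48 h they were -0.42 to 0.14 for Insr, -0.13 to 0.10 for Akt2, -0.28 to 0.45 and -0.0036 to 0.56 for the brightest and second Grb10 probe sets, and -0.29 to 0.35 for Slc2a4.

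Low signal limits Insr, Irs1, Grb10 and the dimmer Slc2a4 probe set, whose signals lie at or near those of probe sets without a target. The fits with the block that leave out the 3 arrays, or 1 array at a time, were chosen after the data had been seen.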
